A study of Rattus norvegicus with 4 samples.

Results

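The annexin genes of rat cartilage were described here across articular and xiphoid cartilage. They were the 9 genes of the deposited count table whose symbol was Anxa1, Anxa2, Anxa3, Anxa4, Anxa5, Anxa6, Anxa7, Anxa8 or Anxa11, out of 13554 genes in all, and each of the 9 passed the filter on low counts that left 11202 genes tested. Articular cartilage, which covers bone ends in joints, and xiphoid cartilage, the tip of the sternum, were taken from Sprague-Dawley rats aged 8 to 10 weeks, with 2 libraries per tissue and no treatment named. The labels give neither the joint, the sex nor the animals behind a library. The p-values therefore cover only how far these libraries vary, and that variation may be technical.

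Annexins are proteins that bind acidic phospholipids of membranes when calcium is present. They share a core of repeated helical domains and differ mainly in the stretch before that core. In mineralizing cartilage several of them, among them annexins A2, A5 and A6, are components of matrix vesicles, the small membrane sacs that bud from chondrocytes and in which the first calcium phosphate forms. Others are known from membrane fusion and repair, vesicle transport and the control of inflammation.

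Anxa8 stood apart from the other annexins. It was 6.47-fold higher in articular cartilage, while the other 8 annexins had log2 fold changes below 0, from -1.05 for Anxa3 to -0.12 for Anxa4. Of these, Anxa1, Anxa3, Anxa6 and Anxa7 passed the test as higher in xiphoid cartilage, with log2 fold changes of -0.58 or below, and Anxa2, Anxa4, Anxa5 and Anxa11 did not pass the test. The calls were thus 1 toward articular and 4 toward xiphoid cartilage. A call is an adjusted p under 0.05 in edgeR's quasi-likelihood test, with Benjamini-Hochberg adjustment over all genes tested. Over all genes tested, 49.5% were called, 25% as higher in articular cartilage and 24.5% as higher in xiphoid cartilage. The 5 called of 9 annexins were therefore close to that background. The median log2 fold change of the annexins was -0.34, against -0.02 over all genes tested. Fold changes are articular over xiphoid, so values above 0 lie toward articular cartilage. Levels are library-size normalised counts (CPM) after TMM scaling. They are not divided by transcript length, so they serve only to compare the same gene between libraries.

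**Figure D1:**
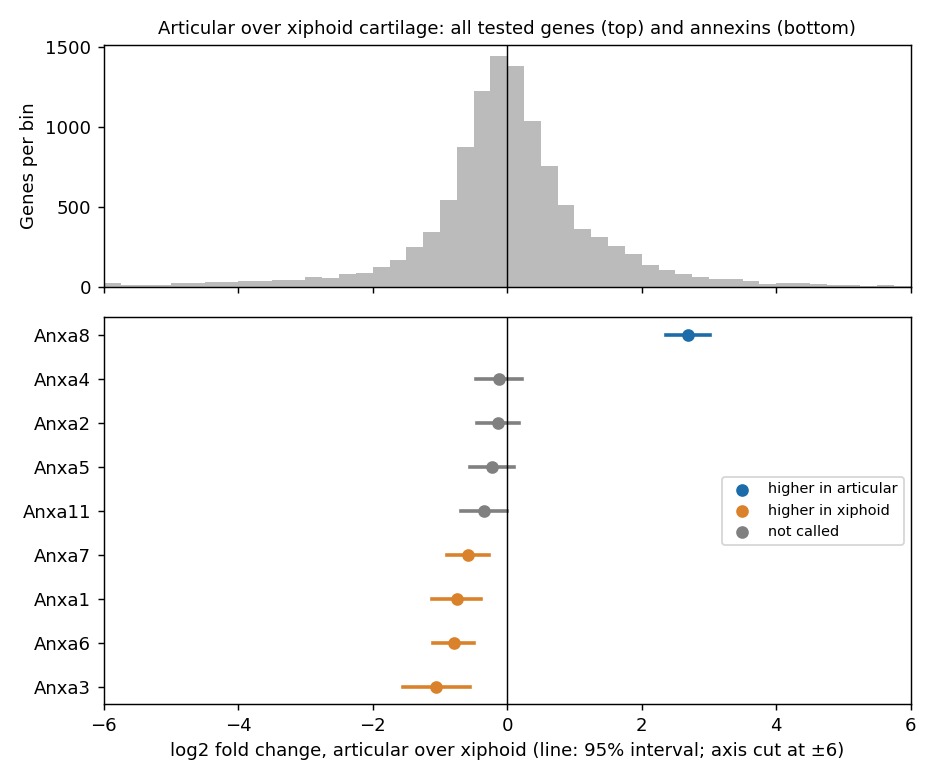
The lower panel plots the log2 fold change of each of the 9 annexins, articular over xiphoid cartilage, as a point with its 95% interval as a line, coloured by call. The upper panel is a histogram of the same quantity over the 11202 tested genes, with the axis cut at -6 and 6, so genes beyond are not drawn. Anxa8 at 2.69 lies alone to the right of 0, and the other 8 annexins lie between -1.05 and -0.12.

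The promoter windows of Anxa8, Anxa1 and Anxa5 are shown because the first pair was called in opposite directions and Anxa5 is a matrix vesicle annexin that did not pass. Each is the 250 bases before the RefSeq start on build GRCr8, on the gene's own strand, with every CpG in capitals. The deposited counts were made on build rn6, so these positions are those of the RefSeq table and not of the counts. The Anxa8 window is chr16:9403137-9403386 on the plus strand, the Anxa1 window chr1:227303733-227303982 on the minus strand and the Anxa5 window chr2:121272697-121272946 on the minus strand.
Anxa8: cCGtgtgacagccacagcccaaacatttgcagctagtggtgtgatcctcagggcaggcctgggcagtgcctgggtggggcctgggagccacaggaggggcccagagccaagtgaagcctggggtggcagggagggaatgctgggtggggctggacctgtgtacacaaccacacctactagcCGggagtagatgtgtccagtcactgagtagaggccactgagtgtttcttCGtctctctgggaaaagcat
Anxa1: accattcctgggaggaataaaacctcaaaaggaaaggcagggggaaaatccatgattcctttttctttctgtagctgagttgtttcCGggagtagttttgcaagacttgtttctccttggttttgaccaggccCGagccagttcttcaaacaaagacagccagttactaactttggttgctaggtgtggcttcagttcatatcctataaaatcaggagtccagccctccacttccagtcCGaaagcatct
Anxa5: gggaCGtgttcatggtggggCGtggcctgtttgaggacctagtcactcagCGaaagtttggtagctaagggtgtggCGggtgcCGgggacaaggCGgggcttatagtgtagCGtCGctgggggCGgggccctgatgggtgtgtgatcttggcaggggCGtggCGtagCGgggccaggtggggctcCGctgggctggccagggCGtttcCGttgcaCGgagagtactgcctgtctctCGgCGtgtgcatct
The Anxa8 and Anxa1 windows held 3 CpG each, and the Anxa5 window held 18. The median over 33469 windows of the same length was 5. RefSeq windows were matched for 8 of the 9 annexins, and none was matched for Anxa6. The other 5 held from 7 CpG (Anxa7) to 24 CpG (Anxa11). Anxa3 and Anxa7, called toward xiphoid cartilage as Anxa1 was, held 10 and 7 CpG. Whether the number of CpG bears on the calls was not tested.

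Across the 8 windows, 3 motifs were searched on both strands. TATAAA was in the windows of Anxa1, beginning 46 bases before the start, and of Anxa2, beginning 45 bases before it. It was in 12.9% of all windows. GGGCGG, which contains a CpG, was in the windows of Anxa2, Anxa3, Anxa4, Anxa5 and Anxa11 and in 30.5% of all windows. TGANTCA was in the Anxa2 window alone among the annexins and in 6.34% of all windows. No motif overlapped another in these windows. The Anxa8 and Anxa7 windows held none of these letters.

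Anxa8 (Entrez gene 306283) encodes annexin A8, first isolated from human placenta as an inhibitor of blood coagulation. It was at 845 and 825 CPM in the articular libraries, against 128 and 130 CPM in the xiphoid libraries. The tissues did not overlap, and the libraries of each tissue lay close together. How many of all genes tested did not overlap was not counted, here or for the annexins below. The level averaged 835 ± 13.8 CPM in articular cartilage and 129 ± 1.92 CPM in xiphoid cartilage (SD, n = 2 each), with a log2 fold change of 2.69 (SE 0.15, edgeR adjusted p = 3.44e-08). A larger fold in either direction was fitted for 8.21% of the genes tested.

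Among the genes with at least 10 CPM on average, the pattern most like that of Anxa8 over the 4 libraries was that of P4ha2, a subunit of collagen prolyl hydroxylase. Likeness was the root mean square difference of log2 CPM after each gene was centred on its own mean. P4ha2 was at 751 and 672 CPM in articular libraries, against 112 and 117 CPM in xiphoid libraries, at a difference of 0.055. Gcnt2, a glycosyltransferase of branched glycan chains, followed at 0.058, and Cd84, a receptor of blood cells, at 0.065. In all, 11 of 8055 genes ranked lay within 0.1 of Anxa8. With 4 libraries of 2 tissues such likeness says little beyond an equal fold.

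Markers of other cells differed between the same libraries. For comparison with the counts of markers, 25% of all genes tested were called toward articular and 24.5% toward xiphoid cartilage. Markers of osteoclasts, the bone-resorbing cells, were higher in articular cartilage for 5 of 5 matched genes, at 0.191% and 0.201% of counts in articular libraries, against 0.0152% and 0.0141% in xiphoid libraries, where Calcr and Atp6v0d2 were at 0. Of 8 osteoblast and osteocyte markers 7 were higher in articular cartilage, and Phex and Sost were at 0 in both xiphoid libraries. Their sum, much of it from Col1a1, which did not pass, was 0.879% and 0.809% of counts in articular libraries, against 0.603% and 0.646% in xiphoid libraries. All 9 matched erythroid markers were higher in articular cartilage, at 0.799% and 0.818% of counts in articular libraries, against 0.0683% and 0.0750% in xiphoid libraries. Of 7 matched neutrophil markers 5 were higher in articular cartilage, with a sum of 0.0193% and 0.0197% of counts in articular libraries, against 0.00887% and 0.0110% in xiphoid libraries, where Elane, Camp and Ngp were at 0. Among them Mpo did not pass, and Lcn2 was higher in xiphoid cartilage, at 127 and 131 counts in articular libraries, against 660 and 712 counts in xiphoid libraries. Most of the neutrophil sum in the xiphoid libraries came from Lcn2. Of 5 tested epithelial markers 3 were called toward articular and 2 toward xiphoid cartilage. The sum of all 7 matched was 0.00884% and 0.00805% of counts in articular libraries, against 0.0139% and 0.0128% in xiphoid libraries. Chondrocyte markers were detected in all libraries of both tissues, at 12.3% and 10.5% of counts in articular libraries, against 2.90% and 2.69% in xiphoid libraries, most of it from Col2a1. Of these 8 markers 5 were higher in articular cartilage, Comp was higher in xiphoid cartilage, and Sox9 and Matn3 did not pass. The part of other cells in the Anxa8 difference was not tested. In bulk samples, fewer cells of a type and less RNA per cell cannot be told apart.

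**Figure D2:**
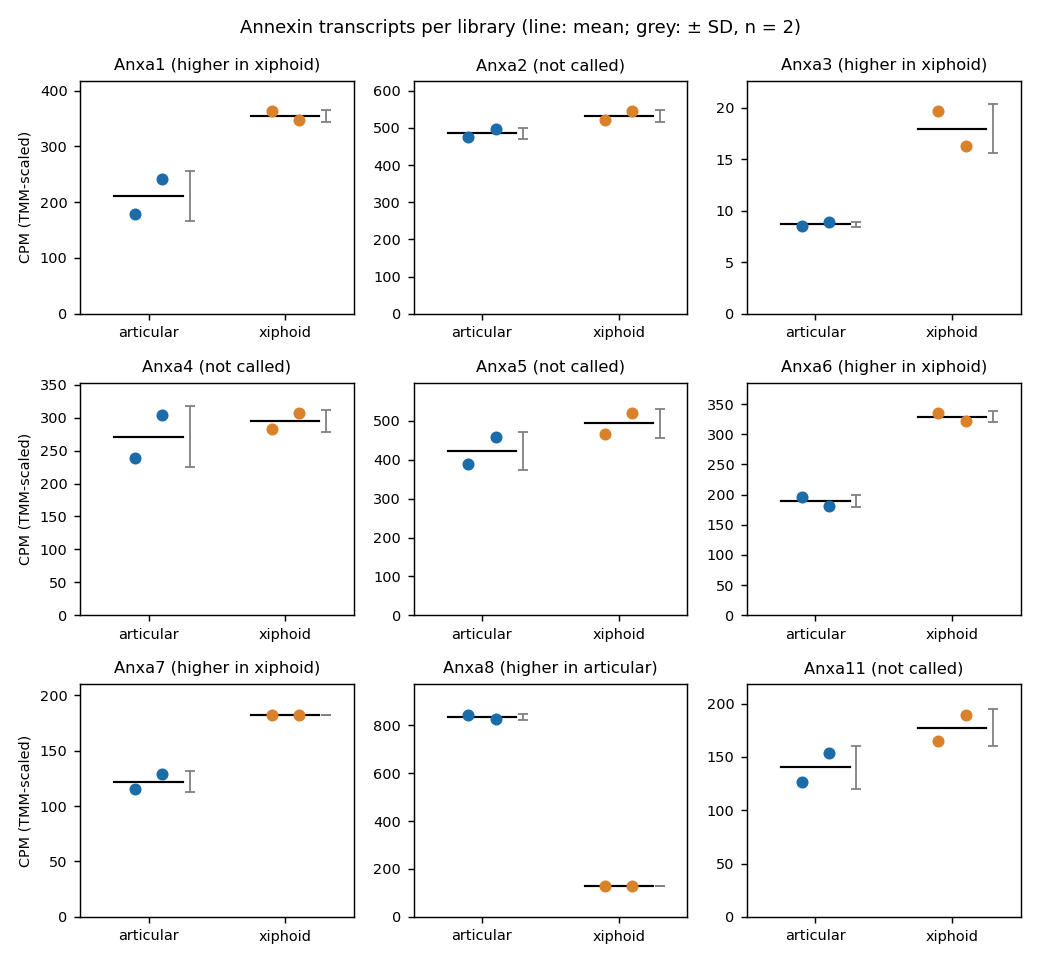
Each panel plots the CPM of 1 annexin in the articular libraries (left) and the xiphoid libraries (right), with each library as a point, the mean as a black line and ± SD (n = 2) as a grey bar. The vertical axes start at 0 and differ between panels. Anxa8 is at 845 and 825 CPM on the left and at 128 and 130 CPM on the right.

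The annexins best known from matrix vesicles did not move with Anxa8. Anxa5 (Entrez gene 25673) encodes annexin A5, which binds exposed phosphatidylserine and is found on matrix vesicles, where it also binds cartilage collagens. It was at 389 and 457 CPM in articular libraries, against 467 and 520 CPM in xiphoid libraries. The tissues did not overlap, but the gap between them was smaller than the gap between libraries of a tissue. Anxa5 did not pass (log2 fold change -0.22, 95% interval -0.55 to 0.11, edgeR adjusted p = 0.245).

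Anxa2 (Entrez gene 56611) encodes annexin A2, which pairs with the S100A10 protein at the cell membrane. It was at 475 and 496 CPM in articular libraries, against 521 and 545 CPM in xiphoid libraries. The tissues did not overlap but lay near each other, and the difference did not pass (log2 fold change -0.13, 95% interval -0.44 to 0.17, edgeR adjusted p = 0.460). A difference as large as that of Anxa8, in either direction, lay outside this interval.

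Anxa6 (Entrez gene 79125) encodes annexin A6, whose core is longer than that of the other annexins. It was at 196 and 182 CPM in articular libraries, against 335 and 322 CPM in xiphoid libraries. All xiphoid values lay well above the articular values. It averaged 189 ± 10.3 CPM in the articular libraries and 329 ± 9.20 CPM in the xiphoid libraries (SD, n = 2 each), which is 1.74-fold higher in xiphoid cartilage (log2 fold change -0.80, SE 0.14, edgeR adjusted p = 5.46e-04). The genes nearest to Anxa6 in pattern were Spryd3, Msrb1, a methionine sulfoxide reductase, and Pla2r1, a phospholipase A2 receptor, at differences of 0.012 to 0.023, and 219 of the 8055 genes ranked lay within 0.1.

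Anxa1 (Entrez gene 25380) encodes annexin A1, a protein induced by glucocorticoids that limits inflammation and acts through formyl peptide receptors. It was at 179 and 242 CPM in articular libraries, against 363 and 347 CPM in xiphoid libraries. The articular libraries differed from each other more than the xiphoid libraries did, and the tissues did not overlap. Anxa1 was 1.69-fold higher in xiphoid cartilage (log2 fold change -0.75, SE 0.17, edgeR adjusted p = 0.00246).

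Anxa3 (Entrez gene 25291) encodes annexin A3, known from neutrophils and from vessel growth. It was covered by 71 and 69 reads in articular libraries and 167 and 119 reads in xiphoid libraries, fewer than any other annexin here. Its level was 8.49 and 8.86 CPM in articular libraries, against 19.6 and 16.3 CPM in xiphoid libraries. Anxa3 had the largest fold toward xiphoid cartilage of the 9, at 2.07-fold, and the widest interval (log2 fold change -1.05, 95% interval -1.56 to -0.55, edgeR adjusted p = 0.00248). Of the 7 matched neutrophil markers given above, 5 were called toward articular cartilage and Lcn2 toward xiphoid cartilage. Of 8 endothelial markers, 3 were called toward xiphoid cartilage, 1 toward articular cartilage, and 4 were not called. With 49.5% called over all genes tested, the endothelial count lay near the background. Whether neutrophils or vessels had a part in the Anxa3 difference was not tested.

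Anxa4 (Entrez gene 79124) encodes annexin A4, known chiefly from epithelial cells. It was at 239 and 304 CPM in articular libraries, against 283 and 307 CPM in xiphoid libraries. The tissues overlapped, and the difference did not pass (log2 fold change -0.12, 95% interval -0.46 to 0.22, edgeR adjusted p = 0.549). Without articular replicate 1 the log2 fold change was 0.04.

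Annexins A7 and A11 carry a long stretch rich in glycine, proline and tyrosine before the core, and bind the calcium sensors sorcin and ALG-2. Anxa7 (Entrez gene 155423) was at 115 and 129 CPM in articular libraries, against 182 and 183 CPM in xiphoid libraries. The xiphoid libraries were nearly equal and above both articular libraries. Anxa7 was higher in xiphoid cartilage (log2 fold change -0.58, SE 0.14, edgeR adjusted p = 0.00534). That call did not hold without xiphoid replicate 1 (adjusted p = 0.0519) or without xiphoid replicate 2 (adjusted p = 0.0558), with a log2 fold change of -0.57 in both.

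Anxa11 (Entrez gene 290527) was at 126 and 154 CPM in articular libraries, against 165 and 190 CPM in xiphoid libraries. The tissues did not overlap, but the gap between them was smaller than the gap between libraries of a tissue. The difference did not pass (log2 fold change -0.34, 95% interval -0.68 to 0.00, edgeR adjusted p = 0.0918). Without articular replicate 2 it passed, at -0.49 (adjusted p = 0.0143).

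The xiphoid libraries, in which Anxa1, Anxa3, Anxa6 and Anxa7 were higher, also carried more transcript of muscle, fat and connective tissue markers. Over all genes tested, 24.5% were called toward xiphoid cartilage. Of 13 skeletal muscle markers 12 were higher in xiphoid cartilage, at 0.0302% and 0.0235% of counts in articular libraries, against 0.953% and 0.969% in xiphoid libraries. Myh2, Myh7 and Pvalb were at 0 in both articular libraries. All 7 adipocyte markers were higher in xiphoid cartilage, at 0.00973% and 0.00841% of counts in articular libraries, where Lep was at 0, against 0.309% and 0.245% in xiphoid libraries. Of 6 matched fibroblast markers 5 were higher in xiphoid cartilage, at 0.0450% and 0.0443% of counts in articular libraries, against 1.44% and 1.30% in xiphoid libraries, most of it from Gsn. All 6 smooth muscle markers were higher there too, at 0.00481% and 0.00484% of counts in articular libraries, against 0.0364% and 0.0366% in xiphoid libraries. The part of these cells in the differences of the annexins was not tested.

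Summed over the 9 genes, annexin counts took 0.256% and 0.280% of the articular libraries, against 0.249% and 0.254% of the xiphoid libraries. The sums thus lay close together in both tissues, although their makeup differed. Anxa8 gave 32.8% and 29.5% of the annexin counts in articular libraries, against 5.18% and 5.09% in xiphoid libraries. Without Anxa8, the other 8 annexins summed to 1728 and 1973 CPM in articular libraries, against 2337 and 2430 CPM in xiphoid libraries. These sums are a description of counts, in which longer transcripts weigh more, and were not tested.

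**Figure D3:**
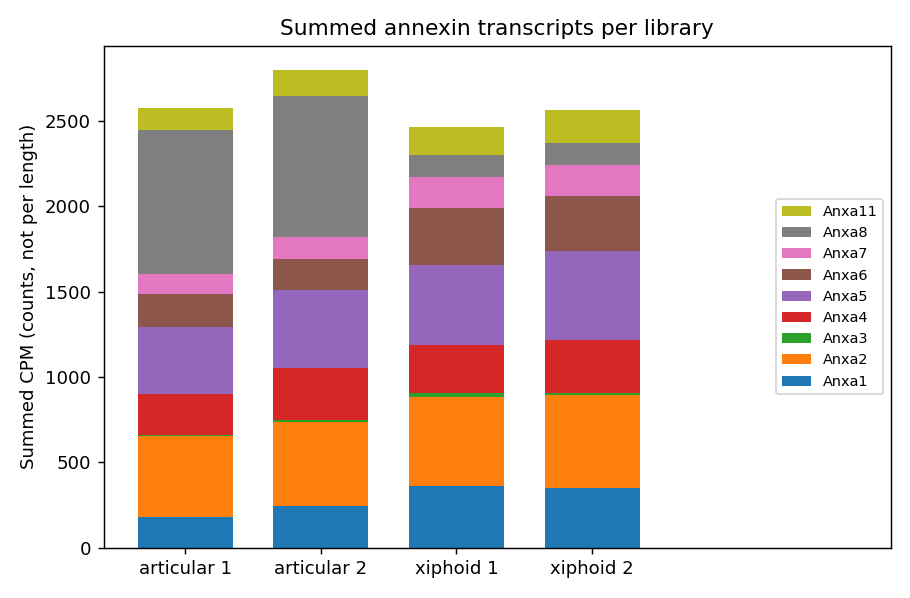
Each bar stacks the CPM of the 9 annexins in 1 library, with the articular libraries on the left and the xiphoid libraries on the right. The bars reach 2573 and 2798 CPM in articular libraries and 2465 and 2561 CPM in xiphoid libraries, and the grey Anxa8 segment spans 845 and 825 CPM of the articular bars and 128 and 130 CPM of the xiphoid bars.

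Of the 11 listed partners and receptors of annexins 9 were tested, of which 1 was called toward articular cartilage, 3 toward xiphoid cartilage, and 5 were not called, against 49.5% called over all genes tested. The count was thus close to that background. Their median log2 fold change was -0.15. S100a10, the partner of annexin A2, was at 241 and 182 CPM in articular libraries, against 612 and 538 CPM in xiphoid libraries. The partner was thus 2.72-fold higher in xiphoid cartilage (log2 fold change -1.44, SE 0.17, edgeR adjusted p = 2.30e-05), while Anxa2 itself did not pass. The difference between these 2 fold changes was not tested. S100a4, another S100 protein that binds annexin A2, was at 190 and 133 CPM in articular libraries, against 1155 and 812 CPM in xiphoid libraries (log2 fold change -2.61, edgeR adjusted p = 1.66e-06).

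S100a6, a calcium sensor that binds annexins A2 and A11, was at 499 and 268 CPM in articular libraries, against 871 and 593 CPM in xiphoid libraries. Its replicates were far apart, and the call was close to the threshold (log2 fold change -0.93, edgeR adjusted p = 0.0371). Without articular replicate 1 the log2 fold change was -1.45, and without articular replicate 2 it was -0.55. Without xiphoid replicate 1 it was -0.61, and without xiphoid replicate 2 it was -1.17, so it stayed toward xiphoid cartilage in each. The adjusted p was 0.128 with DESeq2 and 0.189 with no low-count filter. S100a11, the partner of annexin A1, was at 121 and 195 CPM in articular libraries, against 171 and 202 CPM in xiphoid libraries, and did not pass (log2 fold change -0.24, edgeR adjusted p = 0.355). Without articular replicate 1 it was 0.06, and without articular replicate 2 it passed at -0.63 (adjusted p = 0.00143). It also passed with the replicate number as a block, at -0.28 (adjusted p = 0.0142), a pairing that the labels do not give.

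The calcium sensors that bind annexins A7 and A11 did not pass. Sri, which encodes sorcin, was at 43.4 and 33.3 CPM in articular libraries, against 43.5 and 32.9 CPM in xiphoid libraries (log2 fold change 0.00, 95% interval -0.43 to 0.43). Pdcd6, which encodes ALG-2, was at 158 and 184 CPM in articular libraries, against 170 and 199 CPM in xiphoid libraries (log2 fold change -0.11, 95% interval -0.44 to 0.22). Pla2g4a, a cytosolic phospholipase A2 that annexin A1 inhibits, was at 24.3 and 28.0 CPM in articular libraries, against 4.94 and 4.38 CPM in xiphoid libraries (log2 fold change 2.48, edgeR adjusted p = 3.97e-06). The formyl peptide receptor genes Fpr1 and Fpr2 were looked for by name and not matched among the genes counted, so they have no values here.

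Genes listed for matrix vesicle mineralization, other than annexins, were mostly higher in articular cartilage. Of 8 tested, 6 were higher there and 2, the phosphate transporters Slc20a1 and Slc20a2, did not pass, with a median log2 fold change of 1.06, while 25% of all genes tested were called toward articular cartilage. Alpl, the alkaline phosphatase of matrix vesicles, was at 931 and 907 CPM in articular libraries, against 7.17 and 7.95 CPM in xiphoid libraries (log2 fold change 6.93, SE 0.19). Phospho1, a phosphatase that releases phosphate inside the vesicles, was at 470 and 525 CPM in articular libraries, against 31.6 and 34.2 CPM in xiphoid libraries (log2 fold change 3.92, SE 0.16). Smpd3, a sphingomyelinase of mineralizing cartilage and bone, had a log2 fold change of 1.52, and Nt5e, an ectonucleotidase, of 1.23. The smallest of the called values were those of Enpp1 (0.88) and Ankh (0.66). Anxa2, Anxa5 and Anxa6, in contrast, had values of -0.13, -0.22 and -0.80. Bone cell markers were higher in the same articular libraries, as given above for Anxa8, and their part in these differences was not tested.

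Phosphatidylserine, the main lipid that annexin A5 binds, is moved between the membrane leaflets by scramblases and flippases. Of 7 scramblase and flippase genes tested, 2 were called toward articular cartilage, 2 toward xiphoid cartilage, and 3 were not called, with a median log2 fold change of -0.18. With 49.5% called over all genes tested, 25% toward articular and 24.5% toward xiphoid cartilage, this count lay near the background. Which lipid each of them moves was not examined here. Atp8b1, a flippase, was at 56.9 and 51.2 CPM in articular libraries, against 4.82 and 4.66 CPM in xiphoid libraries (log2 fold change 3.51, edgeR adjusted p = 6.16e-08). Tmem30a, the subunit that flippases share, had a log2 fold change of 0.95 (edgeR adjusted p = 0.00135). On the xiphoid side, Plscr4, a member of the phospholipid scramblase family, was at 18.2 and 26.7 CPM in articular libraries, against 48.1 and 52.7 CPM in xiphoid libraries (log2 fold change -1.17, edgeR adjusted p = 4.68e-04). Ano6, a calcium-activated scramblase, had -0.55 (edgeR adjusted p = 0.0401), which was lost without articular replicate 1 (-0.30, adjusted p = 0.215), without xiphoid replicate 1 (-0.55, adjusted p = 0.109) and without xiphoid replicate 2 (-0.53, adjusted p = 0.123). The Ano6 call was also lost with upper-quartile factors (adjusted p = 0.0552), a minimum mean CPM of 5 (adjusted p = 0.0546) and DESeq2 (adjusted p = 0.0873), at log2 fold changes of -0.51, -0.53 and -0.54.

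Of the 11 tested genes of membrane repair, a process in which annexins gather at the wound, 2 were called toward articular cartilage, 6 toward xiphoid cartilage, and 3 were not called, with a median log2 fold change of -0.58. Over all genes tested 25% were called toward articular and 24.5% toward xiphoid cartilage. The ferlins, calcium-binding proteins of membrane fusion, parted. Dysf, which encodes dysferlin, was at 119 and 121 CPM in articular libraries, against 73.6 and 73.2 CPM in xiphoid libraries (log2 fold change 0.71, edgeR adjusted p = 0.00157). Myof, which encodes myoferlin, averaged 10.7 ± 0.426 CPM in articular libraries and 27.4 ± 1.79 CPM in xiphoid libraries (SD, n = 2 each, log2 fold change -1.36, edgeR adjusted p = 1.60e-04). Ehd2, a membrane-bending ATPase of caveolae, had -0.98, and Trim72, a repair protein of muscle, had -1.54. The xiphoid libraries also carried more muscle marker transcript, as given above, and its part in the Trim72 difference was not tested. Of the calpain genes, Capn2 had -0.66 (edgeR adjusted p = 0.00199) and Capns1 had -0.71 (edgeR adjusted p = 0.00165). Both also passed with DESeq2 (adjusted p = 7.04e-04 and 1.41e-04). Capn1, a calpain, had a log2 fold change of -0.58 (edgeR adjusted p = 0.0231), which did not pass without articular replicate 2 (-0.47, adjusted p = 0.0552), without xiphoid replicate 2 (-0.42, adjusted p = 0.246) or with DESeq2 (-0.58, adjusted p = 0.0589). Pdcd6ip, which encodes the ALG-2 partner ALIX, had 0.62 (edgeR adjusted p = 0.00560) and did not pass without xiphoid replicate 1 (0.57, adjusted p = 0.0687).

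Copines are another family that binds phospholipids through calcium. Of 8 matched, 5 were tested, 1 was called toward articular cartilage, 1 toward xiphoid cartilage, and 3 were not called. Cpne5 was at 10.4 and 13.0 CPM in articular libraries, against 1.65 and 2.60 CPM in xiphoid libraries (log2 fold change 2.47, edgeR adjusted p = 8.77e-05). Cpne2 was at 31.9 and 24.7 CPM in articular libraries, against 66.9 and 66.6 CPM in xiphoid libraries (log2 fold change -1.24, edgeR adjusted p = 1.02e-04). Cpne3 had 0.46 (edgeR adjusted p = 0.181) and Cpne8 0.24 (edgeR adjusted p = 0.281). The 2 called of 5 copines compare with 49.5% of all genes tested.

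**Figure D4:**
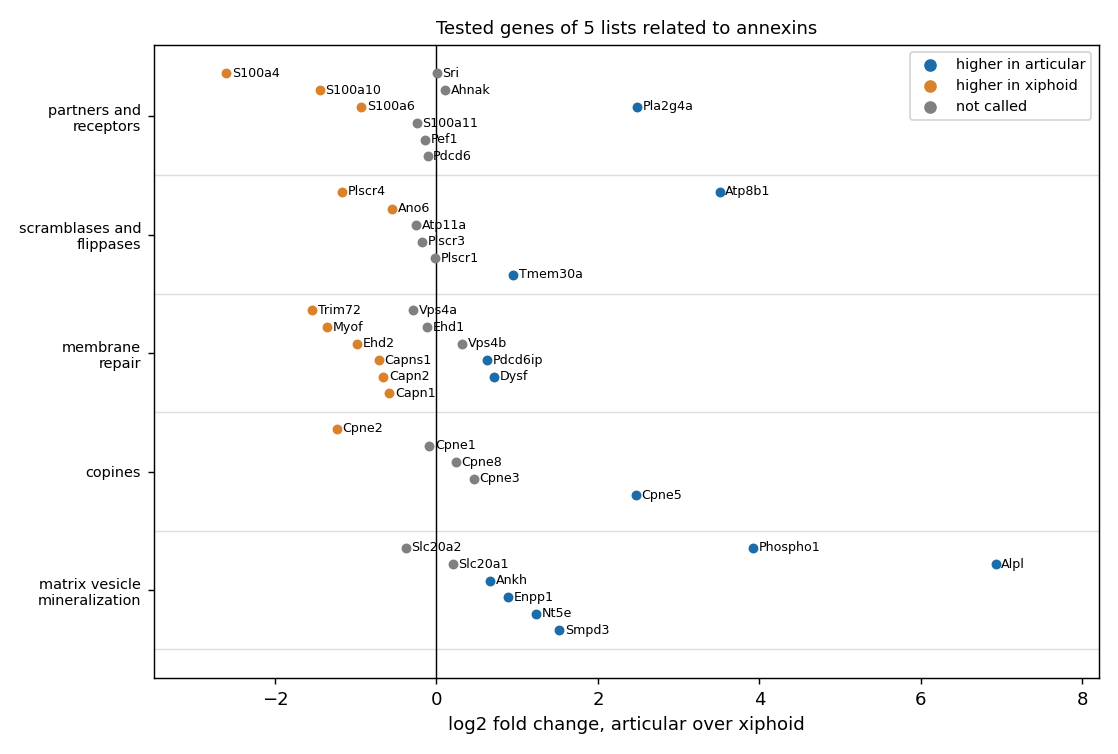
Each point is a tested gene of 5 lists related to annexins, placed by its log2 fold change, articular over xiphoid cartilage, and coloured by call. Heights within a list only separate the labels. The matrix vesicle list reaches 6.93 for Alpl with 6 of 8 genes called to the right of 0, and the partner list reaches -2.61 for S100a4.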

How the data were processed

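RNA sequencing gave an expected count (an estimated read number) per gene and library, as deposited by the authors in a table of reads per gene with no normalization, per the file headers. The tools named are RSEM 1.2.12, Bowtie2 2.2.6, StringTie 1.2.1 and HISAT2 2.0.4 and the build is rn6, per the submitters' processing notes, which state no role for any of them. Whether counting used strand is not stated, and without strand the reads of overlapping genes mix. In the GRCr8 RefSeq table other gene models overlap Anxa4, Anxa6 and Anxa7, and they were not analysed here.

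Expected counts were rounded to whole numbers (3.91% of values were not whole), filtered with filterByExpr by tissue and scaled by TMM. Totals were 7351005 to 8434821 counts per library, and 1 count was worth 0.118 to 0.137 CPM. Articular was tested against xiphoid cartilage, with tissue as the only term, by the edgeR 4.0.16 quasi-likelihood test (robust) in R 4.3.3, 2-sided, with Benjamini-Hochberg adjustment over 11202 genes. The SE is the size of the log2 fold change divided by the square root of F, and the 95% interval uses the test's degrees of freedom. The procedure was tested on simulated data.

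Every annexin of the rule is named. Of each related list the text names up to 4 members with the lowest adjusted p. S100a10, S100a11, S100a6, Sri, Pdcd6, Fpr1 and Fpr2 are named whatever their values. Named after their values were seen were Capn1, Capn2, Capns1, Pdcd6ip, Slc20a1, Slc20a2, Enpp1, Ankh, Plscr1, Cpne1 and Vps4b. Members and lists were chosen with earlier results of these data known. Anxa9, Anxa10 and Anxa13 were looked for by name and not matched among the genes counted. Alternatives were RLE and upper-quartile factors, library sizes alone, leaving out Col2a1 or the markers of other cells, no filter, a minimum mean CPM of 5, a replicate block, each library left out, limma-voom (limma 3.58.1), DESeq2 1.42.0, glmTreat against a fold of 1.5 and, chosen after seeing the data, leaving out ribosomal RNA.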

Additional observations from a re-analysis of the deposited data

How the results depend on the processing

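Anxa8 stayed higher in articular cartilage in all 16 alternatives, with a log2 fold change of 2.68 to 2.74. Against a fold of 1.5 (glmTreat) 1 annexin was higher in xiphoid cartilage in place of 4, which was Anxa3. Anxa1, Anxa6 and Anxa7 then had adjusted p-values of 0.160, 0.0747 and 0.533. In that test 1686 genes were called toward articular and 1538 toward xiphoid cartilage, and 3 membrane repair genes were called, since it asks for a larger change. Over the fits that leave out 1 library, 3 to 5 annexins were higher in xiphoid cartilage. Signs turned only for genes that did not pass. Over the fits without 1 library, Anxa4 ranged from -0.31 to 0.043 (highest without articular replicate 1), S100a11 from -0.63 to 0.065, Sri from -0.20 to 0.23, Pdcd6 from -0.22 to 0.020, Plscr1 from -0.29 to 0.21 and Cpne1 from -0.20 to 0.043. Plscr1 was also 0.033 with upper-quartile factors and 0.0057 without ribosomal RNA, and Sri was -0.0012 with library sizes alone. Among list genes beside annexins, 604 of 639 alternative values kept their direction and call. The cause of the changes was not tested.

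The labels give no pairing behind the replicate numbers. The deviations of same-numbered libraries from their tissue means correlated at 0.188 across genes, with 2 pairs. With the replicate number as a block 3344 genes were called toward articular and 3484 toward xiphoid cartilage. The block called 6 annexins higher in xiphoid cartilage, adding Anxa5 (adjusted p = 0.0227) and Anxa11 (adjusted p = 0.00221), and of the related lists it added S100a11 (adjusted p = 0.0142) and Vps4b (adjusted p = 0.0186). The log2 fold changes hardly moved, from -0.223 to -0.225 for Anxa5 and from -0.341 to -0.345 for Anxa11. For Anxa8 the edgeR adjusted p fell from 3.44e-08 to 5.98e-162 at 2.69 in both fits. The added calls thus came with smaller p-values and hardly larger differences, on a pairing that the labels do not give. Depth limits Anxa3 most, with 69 reads in its lowest library.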
